A study of Danio rerio with 10 samples.

Results

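The mir-29 family was examined in livers of adult male zebrafish by small RNA sequencing, with 1 library per fish. Its members were taken by name alone: every row of the count table whose gene symbol is mir-29a, mir-29b-1, mir-29b-2 or mir-29b-3. The names were compared in any case and with or without hyphens and the dre- prefix. This gave 3 rows of the 272 that name a microRNA gene, in a table of 32266 Ensembl genes. They are MIR29A (ENSDARG00000081841), dre-mir-29b-1 (ENSDARG00000080152) and MIR29B1 (ENSDARG00000081284). Both of the last rows read as mir-29b-1 once case and hyphens are set aside, so they are called here by their symbols as written. Which of the zebrafish mir-29b genes MIR29B1 stands for was not settled. No row had a symbol for mir-29b-2 or mir-29b-3. The names in the study's supplement include a dre-mir-29b-2, given without an Ensembl identifier, so it was not tied to a row.

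The fish were 5 transgenic males with hepatocyte-specific activated β-catenin (ABC), genotype Tg(fabp10a-pt-beta-cat), and 5 non-transgenic wild-type male siblings (WT), all 4 months of age. The fabp10a promoter drives the transgene in hepatocytes, while the RNA came from the whole remaining liver after a portion had been taken for histology. By the study's methods, a pathologist's reading of these sections gave hepatocellular carcinoma in ABC and no marked abnormality in WT. ABC fish carry replicate numbers 6 to 10 and WT fish 1 to 5, and no number is shared between the groups.

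MicroRNAs of the mir-29 family share 1 seed, the short stretch near the 5′ end that pairs with messenger RNAs. In mammals they are best known for repressing collagens and other extracellular matrix genes, and also DNA methyltransferases and the survival gene Mcl1. In mouse liver, mir-29 is lowered in fibrosis, and activated hepatic stellate cells lose it. Mammals carry mir-29 genes in pairs, and their mir-29b genes yield the same mature sequence. In RefSeq's zebrafish annotation (assembly GRCz12tu), mir29a-1 has 1 microRNA gene within 20 kb, and dre-mir-29b-1 has none. That neighbor has the symbol dre-mir-29b3 and the synonym dre-mir-29b-2. A separate gene, mir29b3, has the synonym dre-mir-29b3 and no such neighbor, so the mir-29b names conflict there. How reads that match more than 1 gene were treated is not given in the sources used here, so the division of reads between the mir-29b rows is uncertain.

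The libraries held 1236439 to 2408262 counts in ABC fish and 1423307 to 2609547 in WT fish. Rows that name a microRNA gene (pre-miRNAs) took 93.1% to 94.5% of the counts in ABC and 94.7% to 97.5% in WT. A single row, with the symbol mir124-1 (ENSDARG00000083634), made up 31.0% to 47.6% of these in ABC and 65.8% to 74.5% in WT. No row had the symbol of mir-122, the main microRNA of hepatocytes, and whether the symbol mir124-1 is right for its row was not checked. Because 1 row of that size moves the share of all others, counts were scaled by edgeR's TMM method and are given as CPM, counts per 1000000 of the scaled pre-miRNA library. The 3 mir-29 rows were minor parts of each library: together they held 216 to 760 counts in ABC fish and 70 to 379 in WT fish. By mean CPM, MIR29A ranked 85, MIR29B1 111 and dre-mir-29b-1 125 among the 144 pre-miRNAs that passed edgeR's filter on low counts, which all 3 passed.

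The rows of the family did not all move together in ABC compared to WT. MIR29A rose, dre-mir-29b-1 fell, and MIR29B1, whose mean was also higher in ABC, did not pass the test. No difference was detected between the changes of MIR29A and MIR29B1. In bulk liver, fewer cells of a type and less RNA per cell cannot be told apart. A pre-miRNA was called at an adjusted p under 0.05 and an absolute log2 fold-change (L2FC) of at least 0.5 in the quasi-likelihood test of edgeR, where Benjamini-Hochberg adjustment ran over the 144 pre-miRNAs. At these thresholds 2 of the 3 mir-29 rows were called, beside 43.1% of all pre-miRNAs tested. Calls over all pre-miRNAs were 34 up (23.6%) and 28 down (19.4%), so the share of mir-29 rows called says nothing particular about the family.

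MIR29A, the most abundant of the 3, had 98.4, 169, 171, 179 and 254 CPM in ABC replicates 6 to 10, against 35.8, 46.4, 149, 80.4 and 89.3 CPM in WT replicates 1 to 5. All ABC fish but replicate 6 lay above every WT fish, and WT replicate 3 was the only WT fish to exceed an ABC fish, so the groups overlapped. MIR29A averaged 174 ± 55.0 CPM in ABC and 80.2 ± 44.6 CPM in WT (SD, n = 5 each). Its L2FC was 1.11 (standard error 0.39, adjusted p = 0.0364 by edgeR). The call lay close to the threshold. It was lost without WT replicate 1 (L2FC 0.93, adjusted p = 0.0700) or 2 (1.04, adjusted p = 0.0564), and without ABC replicate 7 (1.13, adjusted p = 0.0541), 8 (1.12, adjusted p = 0.0521), 9 (1.10, adjusted p = 0.0635) or 10 (0.94, adjusted p = 0.0866). It was also lost in 1 edgeR fit over all 481 features that passed the filter, microRNA or not (L2FC 1.17, adjusted p = 0.0608).

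The row dre-mir-29b-1 moved the other way. It had 3.34, 6.64, 15.9, 7.80 and 10.2 CPM in ABC replicates 6 to 10, against 17.0, 22.4, 25.7, 28.7 and 37.4 CPM in WT replicates 1 to 5. Every ABC fish lay below every WT fish, and ABC replicate 8 came closest to the WT range. It was the only 1 of the 3 rows without overlap, beside 34.7% of the pre-miRNAs tested (18.1% with ABC above WT and 16.7% with ABC below WT). Its mean was 8.77 ± 4.68 CPM in ABC and 26.2 ± 7.59 CPM in WT (SD, n = 5 each). The L2FC was -1.60 (standard error 0.38, adjusted p = 0.00539 by edgeR), and the call held without each fish in turn, with L2FC between -1.89 and -1.38. These are few reads, 6 to 22 counts in ABC fish and 19 to 56 in WT fish. The lowest, 6 counts in ABC replicate 6, has an exact 95% Poisson interval of 2.20 to 13.1 counts, which covers counting error only.

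MIR29B1 varied widely from fish to fish. It had 18.4, 65.2, 33.4, 29.1 and 85.0 CPM in ABC replicates 6 to 10, against 9.84, 4.49, 62.7, 33.8 and 31.9 CPM in WT replicates 1 to 5. The ABC fish lay within or above the WT range, and the groups overlapped broadly. It averaged 46.2 ± 27.8 CPM in ABC and 28.5 ± 23.1 CPM in WT (SD, n = 5 each), with an L2FC of 0.69 (standard error 0.63, adjusted p = 0.387 by edgeR). Between its highest and lowest fish the CPM differed by 4.63-fold in ABC and by 14.0-fold in WT, while that of dre-mir-29b-1 differed by 4.76-fold in ABC and by 2.20-fold in WT. The lowest WT fish rested on 6 counts and the highest on 100. The biological coefficient of variation that edgeR estimated for MIR29B1, 0.69, was the 14th highest of the 144 pre-miRNAs, against rank 34 for MIR29A and rank 50 for dre-mir-29b-1.

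**Figure D1:**
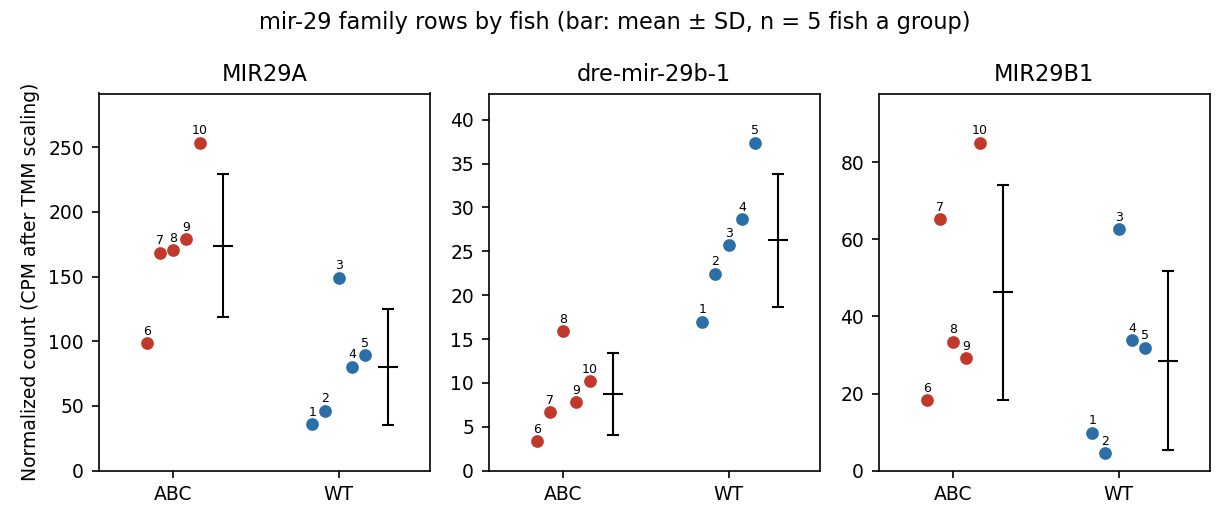
Normalized counts of each mir-29 row (y axis, CPM after TMM scaling, a scale of its own in each panel) in the ABC and WT fish, with the replicate number above each point and a bar for the mean ± SD of 5 fish. MIR29A overlaps between the groups through ABC replicate 6 and WT replicate 3, all ABC fish lie below all WT fish for dre-mir-29b-1, and MIR29B1 overlaps broadly.

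Counts of MIR29A and dre-mir-29b-1 were also set per gene length. Small RNA reads come from short RNAs, so counts need not grow with gene length, and this was not tested. The lengths are of another assembly than that of the alignment. With the gene lengths of RefSeq's annotation, 126 bases for mir29a-1 and 83 for dre-mir-29b-1, the level of MIR29A was 138 ± 43.6 CPM per 100 bases in ABC and 63.7 ± 35.4 in WT, and that of dre-mir-29b-1 was 10.6 ± 5.64 in ABC and 31.6 ± 9.14 in WT (SD, n = 5 each). MIR29A was thus above dre-mir-29b-1 in the means of both groups on this scale, by more in ABC. In CPM without lengths MIR29A was above as well, with 174 against 8.77 in ABC and 80.2 against 26.2 in WT. No length was assigned to MIR29B1.

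A ratio of 2 rows within the same fish does not depend on how the libraries were scaled, and was used to test the unequal change directly. For MIR29A over dre-mir-29b-1, with 0.5 count added to each, the log2 ratio was 4.77, 4.63, 3.39, 4.49 and 4.60 in ABC replicates 6 to 10, against 1.05, 1.04, 2.52, 1.48 and 1.25 in WT replicates 1 to 5. Every ABC fish lay above every WT fish. How often other pairs of pre-miRNAs separate as fully was not computed, and 34.7% of single pre-miRNAs tested were without overlap. The mean was 4.38 ± 0.56 in ABC and 1.47 ± 0.62 in WT (SD, n = 5 each), a difference of 2.91 on the log2 scale or 7.51-fold (exact permutation test over fish, two-sided, p = 0.00794, the lowest value possible for 5 fish against 5; adjusted p = 0.0238 over the 3 pairs of rows). Leaving out 1 fish at a time kept the difference between 2.80 and 3.17.

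MIR29B1 over dre-mir-29b-1 shifted in the same direction. The log2 ratio was 2.37, 3.26, 1.05, 1.87 and 3.03 in ABC replicates 6 to 10, against -0.76, -2.23, 1.28, 0.24 and -0.23 in WT replicates 1 to 5, and the groups overlapped only through ABC replicate 8 and WT replicate 3. It averaged 2.32 ± 0.89 in ABC and -0.34 ± 1.29 in WT (SD, n = 5 each), a difference of 2.66 (two-sided exact permutation test, p = 0.0159, adjusted p = 0.0238 over the 3 pairs). The 2 rows whose symbols read alike, as counted, thus differed in their change, whatever the scaling. This ratio does depend on how reads were divided between the 2 rows, so a difference between their genes was not settled.

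For MIR29A over MIR29B1, no difference was detected. The log2 ratio averaged 2.06 ± 0.55 in ABC and 1.81 ± 0.85 in WT (SD, n = 5 each), and the difference of 0.25 was smaller than the SD of either group (exact permutation test, two-sided, p = 0.587, adjusted p = 0.587 over the 3 pairs). Leaving out each fish in turn moved it between 0.11 and 0.61, the highest being without WT replicate 2, which had 6 counts of MIR29B1.

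**Figure D2:**
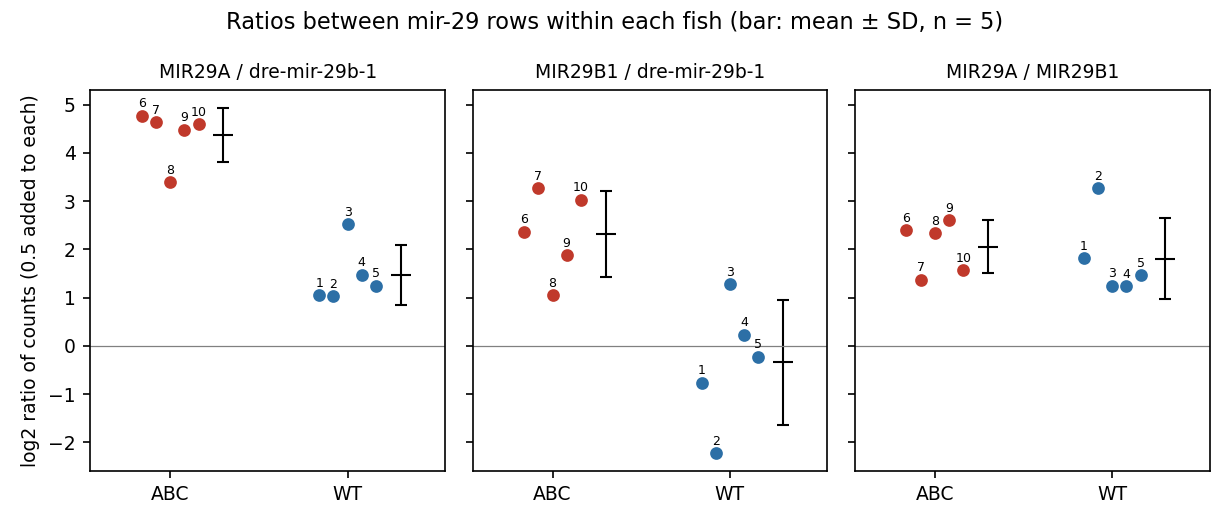
Log2 ratio of counts between 2 mir-29 rows of the same fish (y axis, 0.5 count added to each row) in ABC and WT, with the replicate number above each point and a bar for the mean ± SD of 5 fish. Both ratios over dre-mir-29b-1 are higher in ABC, by 2.91 and 2.66, while that of MIR29A over MIR29B1 differs by 0.25 and overlaps.

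The makeup of the family within a fish changed accordingly. Of each fish's mir-29 counts, dre-mir-29b-1 held 3.86% ± 1.91 in ABC and 22.4% ± 7.60 in WT (SD, n = 5 each), and the share lay between 2.76% and 7.22% in ABC and between 10.8% and 30.6% in WT. MIR29A held 77.0% ± 5.59 in ABC and 59.2% ± 3.55 in WT, with 70.1% to 82.9% in ABC and 56.3% to 63.3% in WT. For both rows the ranges of the groups did not overlap. The shares of a fish have a fixed total, so these are not separate results, and no such shares were computed for other families. In CPM the groups did overlap for MIR29A. MIR29B1 held 19.1% ± 6.19 in ABC and 18.4% ± 7.94 in WT. These are shares of counts per row, with no length scaling.

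**Figure D3:**
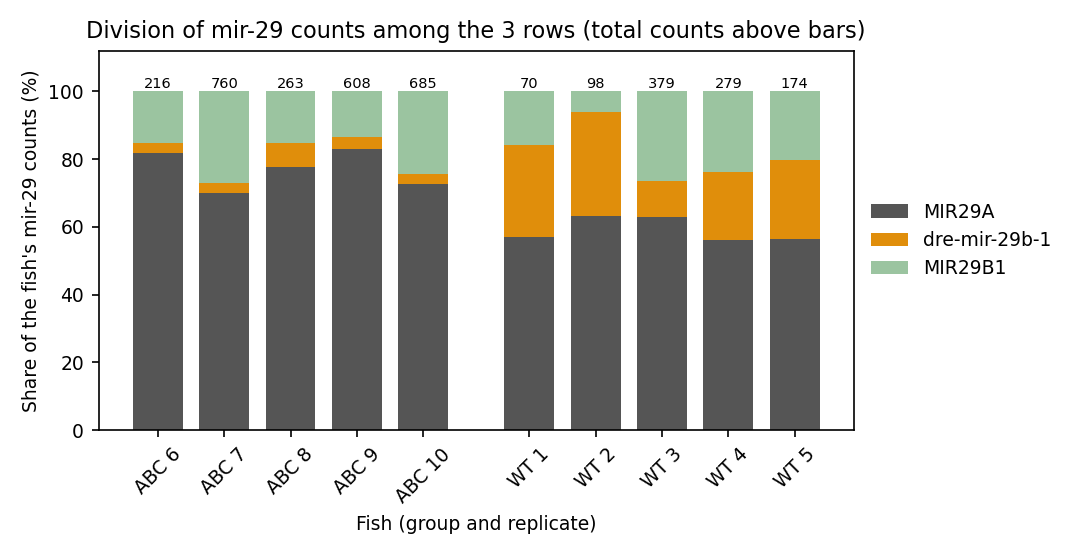
Share of each fish's mir-29 counts in the 3 rows (y axis, percent, stacked to 100), by fish, with the total mir-29 counts of the fish above its bar. The dre-mir-29b-1 segment takes 2.76% to 7.22% in ABC and 10.8% to 30.6% in WT.

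Since reads could have been divided between the mir-29b rows in an unknown way, the rows were also summed. The sum of dre-mir-29b-1 and MIR29B1 had an L2FC of 0.00 (0.00413 before rounding, standard error 0.45, adjusted p = 0.993 by edgeR), so the opposite values of the rows cancelled in it. MIR29A over that sum averaged 1.77 ± 0.46 on the log2 scale in ABC and 0.53 ± 0.21 in WT (SD, n = 5 each), a difference of 1.24 (two-sided exact permutation test, p = 0.00794). This sum covers only the mir-29b rows with a symbol in the table. With all 3 rows summed, the family had 120, 240, 220, 216 and 349 CPM in ABC replicates 6 to 10, against 62.6, 73.3, 238, 143 and 159 CPM in WT replicates 1 to 5. The groups overlapped, and the L2FC of 0.76 (standard error 0.38) did not pass the test (adjusted p = 0.136 by edgeR). It passed without WT replicate 3, the WT fish with the most mir-29 counts (L2FC 1.13, adjusted p = 0.0310).

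The signs held under every scaling tried, and the sizes moved with it. Scaling to the total pre-miRNA count, with no TMM factor, lifted the median L2FC over all tested pre-miRNAs by 0.78, and 65 pre-miRNAs were called up and 10 down, against 34 up and 28 down with TMM factors. Under that scaling the L2FC was 1.91 for MIR29A (adjusted p = 0.00318), -0.84 for dre-mir-29b-1 (adjusted p = 0.0660, not called) and 1.52 for MIR29B1 (adjusted p = 0.0784, not called). The summed family was then called (L2FC 1.57, adjusted p = 0.00944). In CPM without TMM factors, dre-mir-29b-1 lay between 4.27 and 16.5 in ABC and between 13.7 and 24.7 in WT, so the groups overlapped on this scale. Relative to the median of the tested pre-miRNAs, the values of the scalings were close: 1.24 for MIR29A, -1.51 for dre-mir-29b-1 and 0.86 for MIR29B1 with the total count, against 1.23, -1.49 and 0.80 with TMM factors. A change of scaling shifts all rows by about the same amount, so this closeness follows largely from the arithmetic. It is no separate check of the calls.

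**Figure D4:**
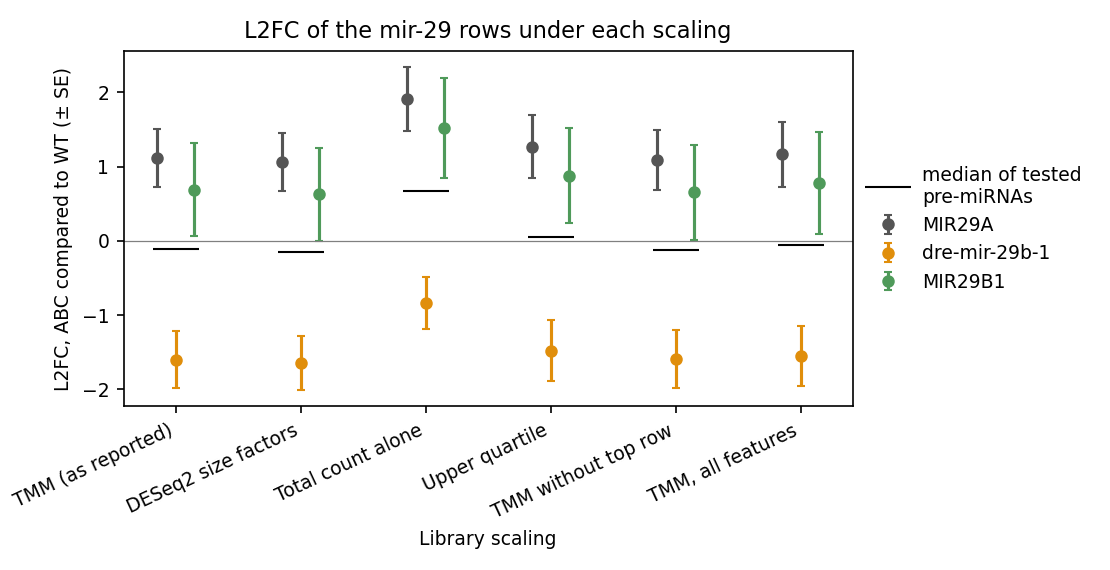
L2FC of each mir-29 row in ABC compared to WT (y axis, with standard error) under 6 ways of scaling the libraries (x axis), with a black line for the median of the tested pre-miRNAs. MIR29A and MIR29B1 stay above 0 and dre-mir-29b-1 below 0 throughout, and total-count scaling lifts the rows and the median together.

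The pre-miRNAs most like each mir-29 row were ranked by Pearson's r of log2 CPM over the 10 fish, as a description: the points share libraries and scaling. For MIR29A the highest were MIR15A (r = 0.86), a family known to target the survival gene Bcl2 in mammals, MIR29B1 (0.85) and MIR26A2 (0.84; ENSDARG00000080591). MIR15A was called up in ABC (L2FC 1.80, adjusted p = 0.00285 by edgeR), and MIR26A2 was not called (L2FC 0.50, adjusted p = 0.0876). For dre-mir-29b-1 they were mir1-2 (0.90), a muscle microRNA, the row listed as mir124-1 (0.90) and mir125c (0.85), all lower in ABC. Since dre-mir-29b-1 itself was lower in every ABC fish, an r over both groups favors such rows. For MIR29B1 they were MIR29A (0.85), dre-mir-462 (0.80) and mir153b (0.75). With total-count scaling, the r of dre-mir-29b-1 was lower with mir1-2 (0.83), mir124-1 (0.77) and mir125c (0.64), which stayed its nearest rows. The row nearest to MIR29B1 was then dre-mir-462 (0.92), ahead of MIR29A (0.90). The mir1-2 row was low in ABC, at 0.71 to 8.15 CPM after TMM scaling. MIR15A was low in WT, at 5.60 ± 2.42 CPM. The mir153b row was low in both groups, at 8.04 ± 6.82 CPM in ABC and 7.82 ± 5.21 in WT (SD, n = 5 each).

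With the mean of each group taken off, so that only the differences among fish of a group remained, MIR29A and MIR29B1 were again close (r = 0.88). The other nearest rows of MIR29A were dre-mir-462 (0.89) and dre-mir-731 (0.84), a teleost cluster known to respond to viral infection in fish. Neither was called (L2FC -0.10 and -0.22, adjusted p = 0.825 and 0.619 by edgeR). In WT replicates 1 to 5, dre-mir-462 had 454, 645, 2076, 1352 and 1176 CPM, lowest in replicates 1 and 2 and highest in replicate 3, as MIR29A was. In ABC replicates 6 to 10 it had 899, 1227, 1134, 861 and 1190 CPM. There dre-mir-462 was lowest in replicate 9, while MIR29A was lowest in replicate 6. The nearest rows of MIR29B1 were MIR29A, dre-mir-462 (0.85) and mir153b (0.84), and those of dre-mir-29b-1 were dre-mir-2184 (0.80), MIR92A1 (0.72; ENSDARG00000082154) and mir153b (0.71). The r of dre-mir-29b-1 with MIR29A was 0.60 and with MIR29B1 0.44. With the group means taken off, mir1-2, mir124-1 and mir125c were no longer among the 3 nearest rows of dre-mir-29b-1. With total-count scaling, MIR29A and MIR29B1 had an r of 0.90 after the group means were taken off. On that scale mir1-2 was still among the 3 nearest rows of dre-mir-29b-1 (0.67).

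**Figure D5:**
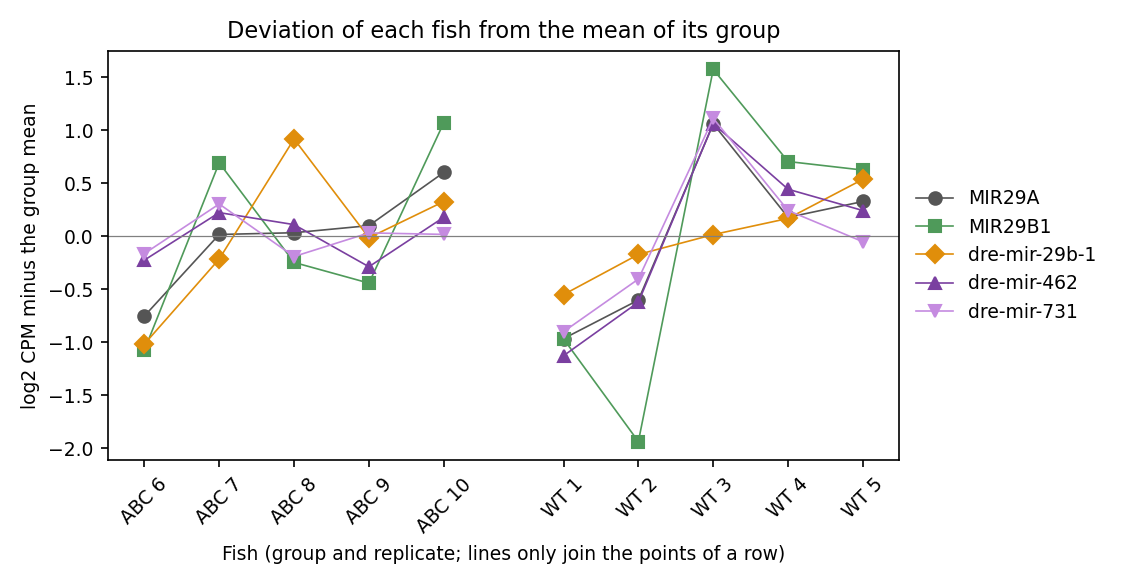
Log2 CPM of each fish minus the mean of its group (y axis) for the mir-29 rows, dre-mir-462 and dre-mir-731, by fish (x axis). MIR29A, MIR29B1, dre-mir-462 and dre-mir-731 are low in WT replicates 1 and 2 and high in WT replicate 3, while dre-mir-29b-1 lies near its group mean in WT replicate 3.

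Transcripts that mammalian miR-29 is known to repress were read from the same libraries, where they appear as short fragments that may not track the amount of whole mRNA. Of 53 such genes listed, 33 had a row, 31 had at least 1 count, and only bcl2a, an inhibitor of cell death, passed edgeR's filter. It was not called (59 counts over ABC fish and 65 over WT fish, L2FC -0.64, standard error 0.42, adjusted p = 0.265 by edgeR), beside 29.5% of the 481 features in that fit. DESeq2 did not call it either, and with all fish kept its unadjusted p was under 0.05 by neither tool. Its L2FC depended on the scaling and the fish, at 0.0035 with the total count alone and -0.94 without ABC replicate 8. In the latter edgeR fit its unadjusted p was under 0.05, and it was not called.

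With a lower filter of at least 10 counts over the 10 fish, 11 of the listed transcripts were tested and edgeR called 0, beside 7.77% of the 3719 features in that fit. One of the 11 had an unadjusted p under 0.05: hdac4, a histone deacetylase, had 24 counts over ABC fish and 3 over WT fish (L2FC 2.48, standard error 0.86, adjusted p = 0.0558 by edgeR). The type I collagen transcripts were at a few counts: col1a1a had 8 over ABC fish and 15 over WT fish (L2FC -1.10, adjusted p = 0.490 by edgeR), and col1a2 had 5 over ABC fish and 15 over WT fish (L2FC -1.66, adjusted p = 0.252). Of the 11, 5 had an L2FC above 0, and their median was -0.02, against 0.31 over the features of the fit.

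Markers of other cell types were measured beside these values, in CPM of all counts without TMM factors, and their part in the mir-29 results was not tested. In the fit over all features, 12.1% were called down and 17.5% up. All 3 exocrine pancreas microRNAs listed, mir-217 and the mir-216 pair, were called down, at a summed 23.5 to 151 in ABC and 276 to 3769 in WT. A single WT fish held 5364 of their 10626 WT counts. Of 13 hepatocyte transcripts with a row, 10 were tested and 7 were called, all down, at a summed 261 to 1223 in ABC and 668 to 5610 in WT. A single WT fish held 9822 of the 17060 WT counts of the 13 rows. The hepatocyte transcript fabp10a was present in all 10 fish, with 476 counts over ABC fish and 557 over WT fish. Epithelial microRNAs of the mir-200 group were called in 3 of 5 rows, all up, at a summed 19492 to 39842 in ABC and 4724 to 12807 in WT over the 5 rows. The remaining rows were not called and did not rise after TMM scaling. A mir-200b row (ENSDARG00000080713) had 4441 counts over ABC fish and 7968 over WT fish (L2FC -1.26, adjusted p = 0.153 by edgeR). The mir-141 row had 17129 counts over ABC fish and 12731 over WT fish. After TMM scaling its L2FC was -0.0022 (adjusted p = 0.997 by edgeR). The 3 listed leukocyte microRNAs with a row summed to 1622 to 3269 in ABC and 2495 to 4223 in WT, and did not share a sign. Only mir-150 was called, down, while mir-155 (2293 counts over ABC fish and 811 over WT fish, L2FC 0.85, adjusted p = 0.131) and mir-223 (4845 counts over ABC fish and 1807 over WT fish, L2FC 0.79, adjusted p = 0.177) were not called. The 11 stellate cell and fibroblast rows, from cells in which mir-29 is studied in mouse liver, summed to 2.43 to 7.46 in ABC and 1.92 to 17.7 in WT, and none was tested for lack of counts. Of these rows, pdgfrb had 0 counts and hand2 had 1, and a single WT fish held 31 of the 57 WT counts. The listed muscle rows, those of mir-206 and mir-133b, summed to 11 counts over ABC fish and 88 over WT fish. A single WT fish held 55 of those 88. The rows of mir-126a (endothelium), mir-144 (erythrocytes) and mir-133b had 0 counts in every fish.

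The lists matched symbols exactly, and rows with a related symbol were added after their values were seen. The L2FC and adjusted p of these added rows come from the fit over the 144 pre-miRNAs, not from that over all features. In the pre-miRNA fit 19.4% were called down and 23.6% up. For endothelium, MIR126 (ENSDARG00000098981) was detected, at 1245 ± 74.8 CPM after TMM scaling in ABC and 1543 ± 247 in WT (SD, n = 5 each). Every ABC fish lay below every WT fish, and the row was not called (L2FC -0.31, adjusted p = 0.147 by edgeR). For leukocytes, MIR142 (ENSDARG00000082167) had 291 ± 106 CPM in ABC and 356 ± 62.8 in WT and was not called (L2FC -0.29, adjusted p = 0.395). For muscle, mir1-2 (ENSDARG00000103352) had 3.08 ± 3.15 CPM in ABC and 23.2 ± 17.3 in WT. It was called down (L2FC -2.95, adjusted p = 0.00528 by edgeR). This row had the highest r with dre-mir-29b-1 over both groups, but not with the group means taken off. Its part in the fall of dre-mir-29b-1 was not tested.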

How the data were processed

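Small RNA libraries (NEBNext kit) of 5 ABC and 5 WT livers were sequenced by the authors as single reads of 50 bp and aligned to GRCz10; the submitters' processing notes name Novoalign and featureCounts without versions, and the methods name miRBase for counting. The authors deposited raw counts per Ensembl gene and fish, without normalization. Every row names a gene, and 0 sample columns were left unused. Groups came from the sample titles. A table of gene names gave symbols for 26433 of the 32266 identifiers.

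ABC was tested against WT on the counts, without covariates, by filterByExpr, TMM factors, glmQLFit and glmQLFTest of edgeR 4.0.16 (R 4.3.3, limma 3.58.1), with Benjamini-Hochberg adjustment. The standard error of an L2FC was its size over the square root of its F statistic. DESeq2 1.42.0, other scalings and filters, and leaving out each fish were alternatives. Log2 ratios of counts were compared by two-sided exact permutation over 252 splits (scipy 1.17.1). The edgeR fit was also run on simulated counts, with no changes or with as many up as down on rows drawn at random. That simulation did not copy the group difference in the share of the mir124-1 row. It is therefore no check of the TMM calls under that difference.

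Named genes were the members, microRNA genes within 20 kb, the 3 pre-miRNAs of highest r with each member, and listed targets that passed the filter. The members and lists were chosen with earlier results of these data known. Likeness under total-count scaling and the separate naming of hdac4, col1a1a, col1a2, MIR126 and MIR142 were chosen after their values were seen. Target and marker lists came from general knowledge. Mature sequences were not used here.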

Additional observations from a re-analysis of the deposited data

Results flagged for a closer look

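Of 14 groups of 5 fish (7 measures of the mir-29 rows in ABC and in WT), Dixon's ratio singled out 1 fish in 2. Chance does so in about 1 of 20 groups, and the measures share counts. The log2 ratio of MIR29A to dre-mir-29b-1 of ABC replicate 8 was 3.39, while the remaining ABC fish had 4.49 to 4.77. Without that fish the difference between ABC and WT was 3.16. The log2 ratio of MIR29A to MIR29B1 was 3.27 in WT replicate 2, against 1.24 to 1.82 in the other WT fish; that fish had 6 counts of MIR29B1.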

How the results depend on the processing

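The fall of dre-mir-29b-1 stayed called in 17 of 18 alternatives, with total pre-miRNA count scaling the exception (L2FC -0.84, adjusted p = 0.0660 by edgeR). The rise of MIR29A stayed called in 11 of 19. It was lost over all features (L2FC 1.17), with a filter of at least 10 counts (1.08, adjusted p = 0.0545) and in 6 of 10 fits that left out 1 fish, over which its L2FC lay between 0.93 and 1.53. MIR29B1 was not called in any of 18 (L2FC between 0.35 and 1.52, the lowest without ABC replicate 10). The summed family was called with total-count scaling (1.57) and without WT replicate 3, and lay between 0.56 and 1.13 when each fish was left out. Every one of these kept its sign. Total-count scaling gave 65 pre-miRNAs up and 10 down. The 3 ratios kept their side of the threshold in 12 of 12 alternatives each. With 1 fish left out, both ratios over dre-mir-29b-1 came close to it, with an adjusted p of up to 0.0476 by exact permutation. For MIR29A over dre-mir-29b-1 the unadjusted p was then 0.0159 throughout, the lowest value possible with 1 fish fewer. Its closeness to the threshold thus follows from the number of fish and does not measure how stable the ratio is. For the target transcripts, bcl2a alone was tested in each alternative but the filter of at least 10 counts, so the count of 0 called in all of them says nothing about the list's stability. The sample labels state no pairs of fish, so no paired analysis was run. Single fish with under 20 counts of dre-mir-29b-1 or MIR29B1 limit the precision of those rows.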
